A study of Mus musculus with 4 samples.

Results

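The variable segments of the immunoglobulin kappa locus (Igkv) were examined in regulatory T cells from mouse spleen. A transcript cluster, the unit of the array used here, is a group of probes summarised to 1 value per array. A cluster was included where the platform annotation gave it exactly 1 distinct gene symbol and that symbol began with Igkv and a number. This gave 86 clusters of 65528, each with a different symbol, from 20 V families, the family being the number before the hyphen. All 86 symbols were found in the RefSeq annotation, on chromosome 6, where RefSeq lists 162 Igkv segments. It types 79 of the 86 as V segments and 7 as V segment pseudogenes. A further 15 clusters carried an Igkv symbol together with another symbol and were kept apart. Of the 86 symbols, 4 also appeared on these 15 clusters.

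The arrays labelled KO came from Foxp3-Cre mice, which carry a Foxp3EGFP-cre transgene, crossed to a Bmi1-flox line. The arrays labelled WT came from the same Foxp3-Cre transgene on C57BL/6. Every mouse therefore carried the Cre transgene, driven by the Foxp3 promoter, and the cross is meant to delete Bmi1, a Polycomb repressive complex 1 subunit, in cells that express Foxp3. There were 2 arrays per group: KO replicates 1 and 2, and WT replicates 1 and 3. Mice were 7 to 8 weeks old, and 15000 to 40000 green cells were sorted per sample after magnetic isolation of CD4+ cells. The sample titles call the cells unstimulated, but the design text of the series speaks of a 24 h anti-CD3/CD28 culture, so whether the cells were stimulated is unclear. No label ties a sample to an animal, and the p-values may therefore reflect technical spread alone.

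A kappa light chain is encoded by 1 V segment joined to 1 J segment and spliced to the single constant gene Igkc. The RAG recombinase makes this join in B cell precursors, and each B cell and its progeny normally express 1 joined V segment. Plasma cells transcribe it at very high levels. Unjoined V segments can also be transcribed at a low level from their own promoters, and T cells do not normally join the kappa locus. V families group segments of similar sequence, so probes of 1 member may also bind transcripts of another; this was not tested. In RNA from many cells, a change in the number of cells with a transcript and a change in transcript per cell cannot be told apart.

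The targeted gene went against its label. Bmi1 read 9.58 and 9.91 on the log2 scale in the arrays labelled KO, against 8.98 and 8.98 in the arrays labelled WT, a difference of 0.76 (SE 0.18, limma adjusted p 0.370). Which exons its cluster covers is not given in the sources used here, so it may lie outside the deleted part. Groups are called by their labels throughout, and every direction below rests on those labels. All 10 measured T cell and regulatory T cell markers lay at or above the median cluster. The T cell receptor subunit Cd3e read 16.91 and 16.82 in the arrays labelled KO and 16.28 and 16.32 in those labelled WT, and the interleukin-2 receptor chain Il2ra lay between 14.97 and 15.01. Of the 10 markers 7 read higher and 3 lower. Lrrc32, a surface protein of activated regulatory T cells, had the largest difference of the list and read 11.18 and 10.48 in the arrays labelled KO, against 12.05 and 12.28 in the arrays labelled WT (difference -1.34, SE 0.26, limma adjusted p 0.361). The transcription factor Ikzf2 also read lower without overlap, by little (difference -0.16, SE 0.13). Both arrays labelled KO lay above both labelled WT for 4 of the 10 markers and below for 2. Over all clusters those shares were 17.3% and 20.5%. Foxp3 lies only on a cluster with several symbols and has no value here.

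The kappa V segments gave array values near the median cluster. Their median was 4.92 and 4.86 in the arrays labelled KO (replicates 1 and 2), against 4.69 and 4.64 in the arrays labelled WT (replicates 1 and 3). The median over all clusters was 4.65 and 4.69 in the arrays labelled KO and 4.72 and 4.67 in those labelled WT. In mean level 49 of the 86 lay at or above the median cluster of the table (4.68), and 37 lay below it. The table has no detection call or background measure, so a difference of a dim cluster may understate the change in RNA. Values of different clusters also depend on their probes. A rank of clusters by value, such as the brightest of a family, or a place above or below the median cluster, therefore describes array signal and not the amount of RNA of one segment against another.

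**Figure D1:**
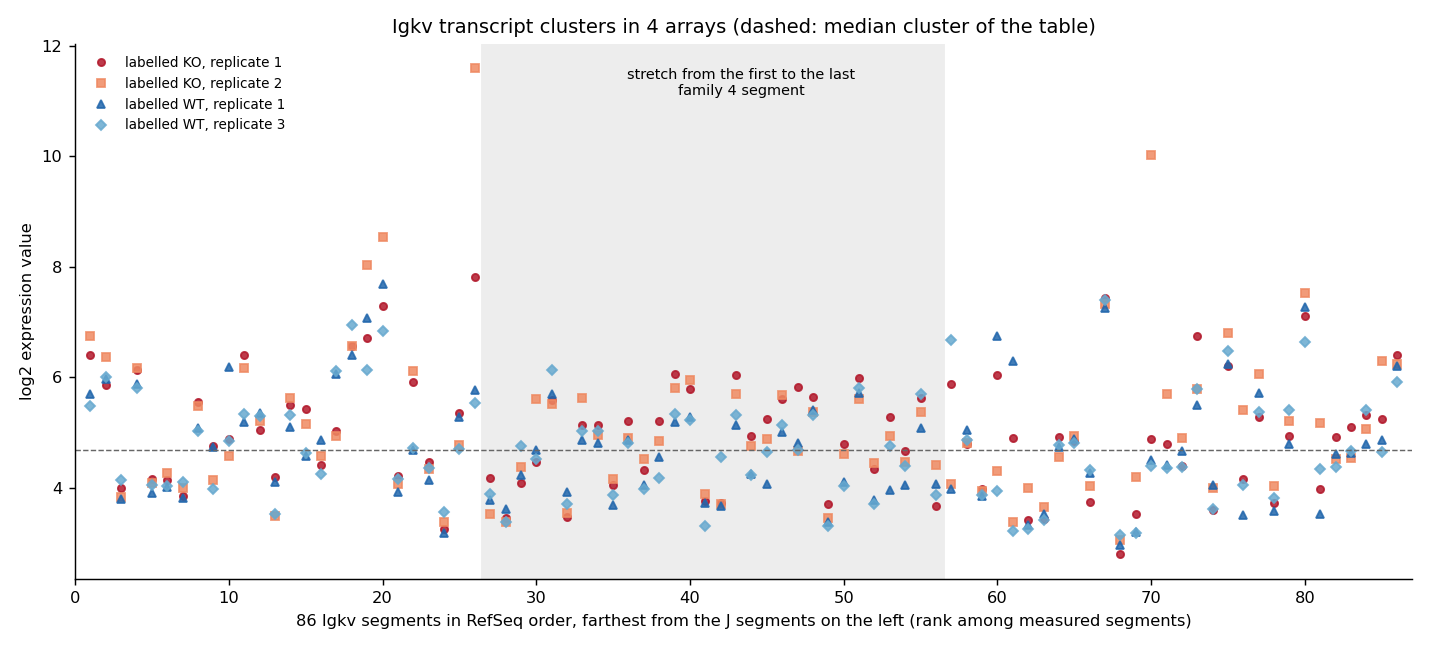
Log2 expression values of the 86 Igkv clusters (y axis) in RefSeq order along the locus (x axis, rank among measured segments), with 1 marker per array. KO replicate 2 stands apart at Igkv19-93 (11.59) and Igkv8-30 (10.02).

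No Igkv cluster passed the test, and more of them read higher than lower in the arrays labelled KO. At a Benjamini-Hochberg adjusted p under 0.05 over all 65528 clusters (limma), 0 of 86 were called, and the lowest adjusted p was 0.229. Over all clusters 1 was called higher (0.00153%) and 3 lower (0.00458%). The difference, KO minus WT on the log2 scale, was above 0 for 64 of the 86 (74.4%), where 46.1% of all clusters were above 0. It was below 0 for 22, beside 53.0% of all clusters. The median difference was 0.16, beside -0.02 over all clusters, and single values ran from -1.10 to 4.04.

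An unadjusted limma p under 0.05 was reached by 21 Igkv clusters that read higher (24.4%), where 4.26% of all clusters did so, and by 3 that read lower (3.49%), where 5.17% did. Both arrays labelled KO lay above both arrays labelled WT, called apart upward below, for 35 of the 86 (40.7%), against 17.3% of all clusters. They lay below both, or apart downward, for 6 (6.98%), against 20.5% of all clusters, and the arrays overlapped for the other 45. The counts for each array labelled KO share the same 2 arrays labelled WT and are not independent of each other. KO replicate 1 exceeded both arrays labelled WT in 50 clusters, beside 28.8% of all clusters, and KO replicate 2 did so in 48, beside 33.2%. Besides the 35 shared clusters, 15 were above in KO replicate 1 alone and 13 in KO replicate 2 alone. The median difference of the Igkv clusters was 0.16 without KO replicate 1 and 0.23 without KO replicate 2. It was 0.25 without WT replicate 1 and 0.21 without WT replicate 3. Over all clusters it lay between -0.03 and 0.005 in these settings.

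The shift was small for most segments. A difference above 0.5 was seen for 25 of the 86, beside 1652 of all 65528 clusters. A difference of at least 1, which is a 2-fold change, was seen for 6 that read higher (6.98%) and 1 that read lower (1.16%). Over all clusters those shares were 0.56% and 0.795%. Among the 49 clusters at or above the median cluster 39 read higher, with a median difference of 0.30, and among the 37 below it 25 read higher, with a median of 0.10. V segments typed as such read higher in 61 of 79 cases (median 0.17), and pseudogene segments in 3 of 7 (median -0.06). Of the 15 clusters that carried an Igkv symbol with another symbol, 11 read higher (73.3%, median 0.32), beside 46.1% of all clusters. In 8 of the 15 (53.3%) all KO values lay above all WT values, and in 0 below, beside 17.3% and 20.5% of all clusters.

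Family 4 is the largest mouse kappa V family, with 33 segments in RefSeq, and 25 of them had a cluster here. Its median was 5.13 and 4.75 in the arrays labelled KO, against 4.22 and 4.64 in the arrays labelled WT. KO replicate 2 and WT replicate 3 thus lay close together, while KO replicate 1 and WT replicate 1 lay farther out. In this family 22 of 25 clusters had a KO minus WT difference above 0, with a median difference of 0.41 and a range from -0.38 to 0.74. For 16 of the 25 both arrays labelled KO lay above both labelled WT, and for 0 below both, beside 17.3% and 20.5% of all clusters. The 10 clusters of family 4 with an unadjusted p under 0.05 (limma) all read higher, beside 4.26% of all clusters higher and 5.17% lower.

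Within family 4 no difference reached 1 log2 unit, and those of Igkv4-54 and Igkv4-68 depended on single arrays. The median gap between its replicates was 0.26 for KO and 0.16 for WT, beside 0.13 and 0.15 over all clusters. Igkv4-54, the largest difference of the family, read 5.28 and 4.93 in the arrays labelled KO, against 3.96 and 4.76 in the arrays labelled WT (difference 0.74, SE 0.29, limma adjusted p 0.535). It rested in part on WT replicate 1, since the difference without that array was 0.34 and without WT replicate 3 it was 1.14. Igkv4-56, typed as a pseudogene and the brightest of the family, read 5.99 and 5.60 in the arrays labelled KO, against 5.71 and 5.81 in the arrays labelled WT, which overlap. Igkv4-68, with the lowest difference of the family, read 3.73 and 3.71 in the arrays labelled KO, against 3.66 and 4.55 in the arrays labelled WT. Only WT replicate 3 stood apart for Igkv4-68, and without it the difference was 0.06 rather than -0.38. Between replicates labelled KO, just 1 family 4 cluster, Igkv4-60, was more than 1 log2 unit apart (5.83 and 4.67).

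Without family 4, 42 of 61 clusters read higher (68.9%, beside 46.1% of all clusters), with a median difference of 0.13. Of these 61, 19 lay apart upward and 6 downward, beside 17.3% and 20.5% of all clusters. In the locus order, with Igkv2-137 farthest from the J segments, the 25 family 4 clusters sit in 1 stretch of 30 measured segments. The other 5 clusters in that stretch belong to families 1, 12 and 13, and 3 of them read higher, with a median of 0.13. Farther from the J segments 18 of 26 clusters read higher and nearer to them 21 of 30, each with a median of 0.13.

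**Figure D2:**
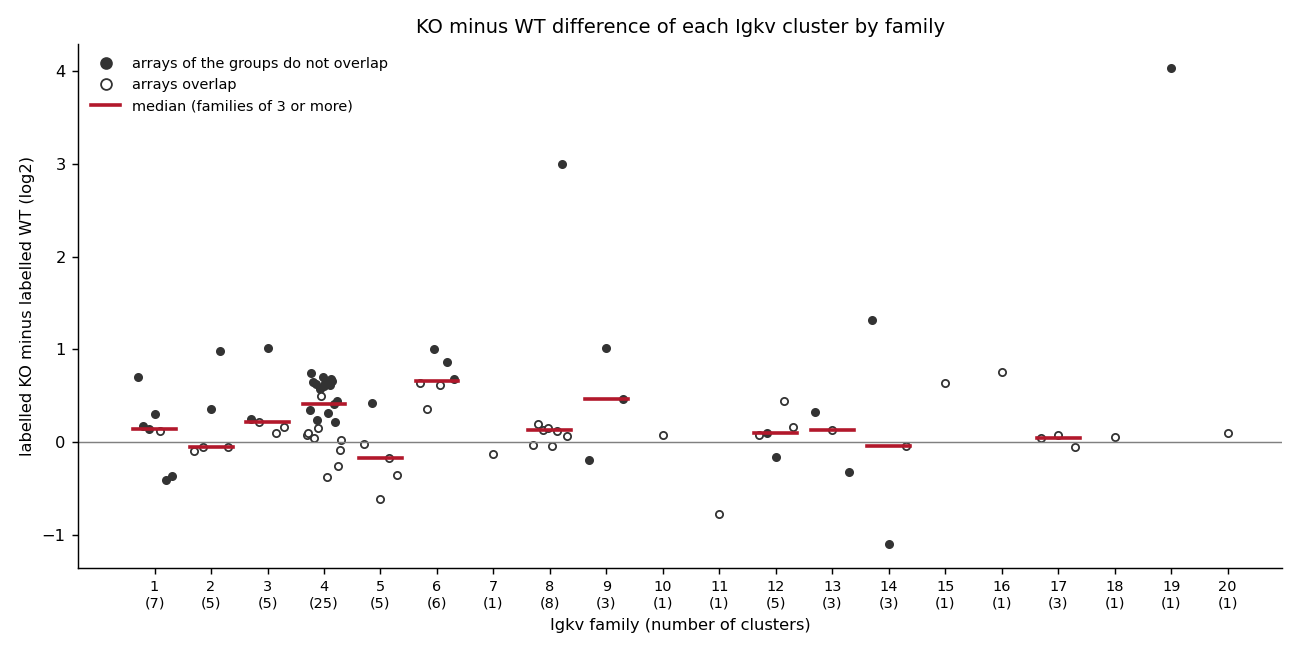
KO minus WT difference of each Igkv cluster on the log2 scale (y axis) by V family (x axis, number of clusters in brackets), with filled points where the arrays of the groups do not overlap and a bar at the median of families with 3 or more clusters. Family 4 has a median of 0.41 and family 6 of 0.66, while Igkv19-93 (4.04) and Igkv8-30 (3.0) stand far above their neighbours.

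Other families of 3 or more clusters varied in direction. Their counts of clusters with arrays apart are small, and over all clusters 17.3% were apart upward and 20.5% downward. All 6 clusters of family 6 read higher (median 0.66, range 0.36 to 1.00), with arrays apart for 3. All 5 of family 3 did too (median 0.22, range 0.10 to 1.01), with arrays apart for 2. Family 8 read higher in 6 of 8 clusters, yet its median was 0.13 and arrays were apart for 1, Igkv8-30. In family 1, 5 of 7 read higher (median 0.14), with 4 apart upward and 2 downward. In family 12, 4 of 5 read higher (median 0.10).

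Families 2, 5 and 14 had medians below 0. Family 2 read higher in 2 of 5 clusters (median -0.06), family 5 in 1 of 5 (median -0.17) and family 14 in 1 of 3 (median -0.04). Among the remaining 3-member families the medians were 0.46 for family 9, 0.13 for family 13 and 0.04 for family 17. Family 9 held 2 clusters apart upward and 1 downward, beside 17.3% and 20.5% of all clusters. Another 8 families had a single cluster, with differences from -0.78 (Igkv11-125) to 4.04 (Igkv19-93).

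Igkv19-93, the only member of family 19, had the largest difference of all 86. It read 7.81 and 11.59 in the arrays labelled KO, against 5.77 and 5.54 in the arrays labelled WT. Both arrays labelled KO were above both labelled WT, and KO replicate 2 was 3.78 log2 units above KO replicate 1. The difference was 4.04 (SE 1.20, 16.5-fold, 95% interval 0.96 to 7.13, limma adjusted p 0.448). Leaving out KO replicate 2 gave 2.15.

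Igkv8-30 followed a sharper form of that pattern. Its values were 4.88 and 10.02 in the arrays labelled KO, against 4.50 and 4.40 in the arrays labelled WT. KO replicate 2 alone was high, and KO replicate 1 exceeded the arrays labelled WT by little. The difference of 3.0 (SE 1.63, limma adjusted p 0.656) was 0.43 without KO replicate 2. Igkv6-29, the next segment toward the J segments in RefSeq, read 4.79 and 5.70 in the arrays labelled KO, against 4.41 and 4.35 in the arrays labelled WT (difference 0.86, and 0.41 without KO replicate 2).

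Other segments were also highest in KO replicate 2. Igkv3-2 read 5.24 and 6.30 in the arrays labelled KO, against 4.86 and 4.65 in the arrays labelled WT (difference 1.01, SE 0.36, limma adjusted p 0.499). For Igkv6-20 the values were 4.16 and 5.40 in the arrays labelled KO, against 3.51 and 4.05 in the arrays labelled WT (difference 1.00, SE 0.44, limma adjusted p 0.577). Both differences depended on that array: without KO replicate 2 they were 0.48 for Igkv3-2 and 0.38 for Igkv6-20.

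A set of segments was even within each group. Igkv14-100 read 5.92 and 6.12 in the arrays labelled KO, against 4.69 and 4.72 in the arrays labelled WT, the smallest p of the 86 (difference 1.32, SE 0.13, 2.49-fold, limma adjusted p 0.229). Igkv9-124 read 6.40 and 6.16 in the arrays labelled KO, against 5.19 and 5.34 in the arrays labelled WT (difference 1.01, SE 0.15, limma adjusted p 0.327). Igkv2-137, the segment farthest from the J segments, read 6.40 and 6.74 in the arrays labelled KO, against 5.69 and 5.48 in the arrays labelled WT (difference 0.98, SE 0.18, limma adjusted p 0.351). In all 3 the gap between groups was wider than that between replicates, and leaving out any 1 array kept the difference between 0.81 and 1.42. None passed over all clusters.

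The lowest difference belonged to the same small family as Igkv14-100. Igkv14-111 read 5.03 and 4.93 in the arrays labelled KO, against 6.05 and 6.12 in the arrays labelled WT (difference -1.10, SE 0.12, limma adjusted p 0.252). Replicates differed by 0.10 (KO) and 0.07 (WT), and without any 1 array the difference lay between -1.16 and -1.06. Igkv1-35 read 3.74 and 4.03 in the arrays labelled KO, against 4.27 and 4.32 in the arrays labelled WT, also without overlap (difference -0.41, SE 0.13, limma adjusted p 0.455). Igkv11-125 differed in another way, with 4.88 and 4.58 in the arrays labelled KO, against 6.18 and 4.85 in the arrays labelled WT. WT replicate 1 alone was high there, and without it the difference was -0.12 rather than -0.78.

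**Figure D3:**
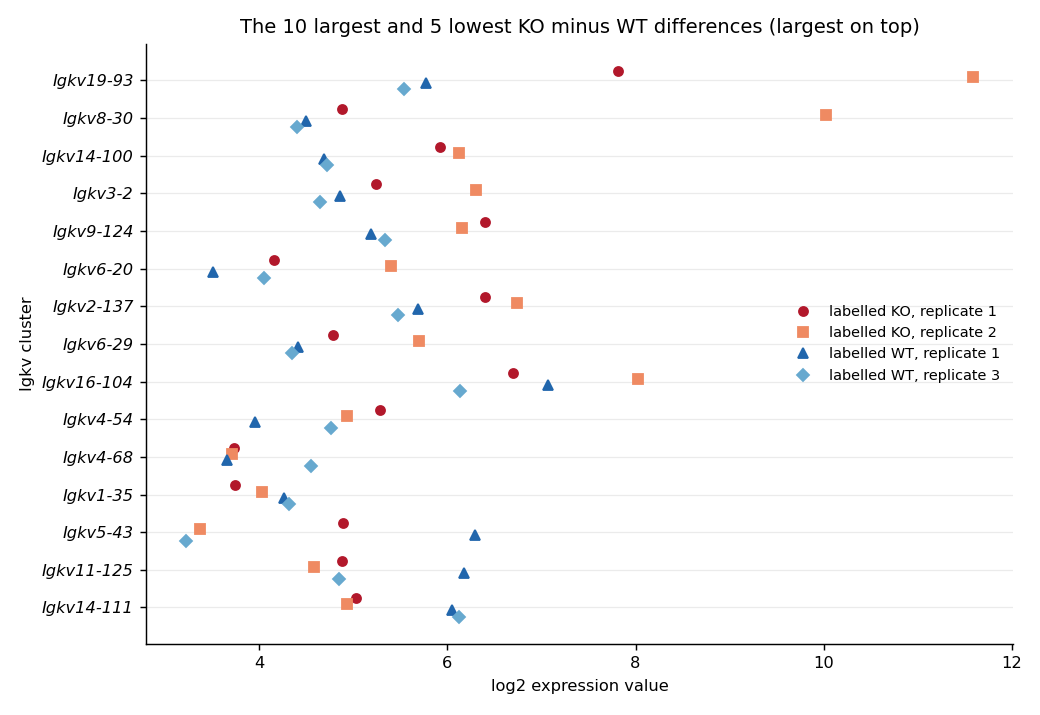
Log2 expression values (x axis) of the Igkv clusters with the 10 largest and the 5 lowest KO minus WT differences (y axis, largest on top), with 1 marker per array. Igkv14-100 and Igkv14-111 separate the groups in opposite directions with replicates close together, whereas KO replicate 2 lies far above the other arrays at Igkv19-93 and Igkv8-30 and WT replicate 1 at Igkv5-43 and Igkv11-125.

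Several kappa V segments differed more between replicates than between groups. Replicates labelled KO were more than 1 log2 unit apart for 12 of the 86 (14.0%), beside 0.989% of all clusters. Replicates labelled WT were more than 1 apart for 4 (4.65%), beside 1.64%. The median absolute gap between replicates was 0.28 for KO and 0.21 for WT, beside 0.13 and 0.15 over all clusters. Of the 12 segments with a wide gap between replicates labelled KO, 8 were higher in KO replicate 2 and 4 in KO replicate 1. Over all 86 the arrays were even, with KO replicate 2 the higher in 43 and KO replicate 1 in the other 43.

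Family 5 had the widest median gap between replicates of the families with 3 or more clusters, 1.52 for KO and 2.71 for WT. Igkv5-43 read 4.89 and 3.37 in the arrays labelled KO, against 6.29 and 3.22 in the arrays labelled WT. Igkv5-45, its measured neighbour in the locus order, read 6.04 and 4.30 in the arrays labelled KO, against 6.75 and 3.93 in the arrays labelled WT. Both were high in KO replicate 1 and WT replicate 1 and low in KO replicate 2 and WT replicate 3.

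Igkv5-48 was high in KO replicate 1 as well, but its high array in the other group was WT replicate 3: it read 5.88 and 4.06 in the arrays labelled KO, against 3.97 and 6.68 in the arrays labelled WT. These 3 were the only Igkv clusters whose replicates were more than 1 apart in both groups. Their directions turned with single arrays: the difference of Igkv5-43 was -0.62 with all arrays and 0.91 without WT replicate 1, and that of Igkv5-48 was -0.36 with all arrays and 1.00 without WT replicate 3. For Igkv5-45 it was -0.17 with all arrays and 1.24 without WT replicate 1.

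Igkv16-104 and Igkv15-103 are adjacent in RefSeq and were among the 10 Igkv clusters of highest mean level. Igkv16-104 read 6.70 and 8.03 in the arrays labelled KO, against 7.07 and 6.13 in the arrays labelled WT. Igkv15-103 read 7.28 and 8.54 in the arrays labelled KO, against 7.69 and 6.84 in the arrays labelled WT. Both ranked the 4 arrays in the same order, with KO replicate 2 highest and WT replicate 3 lowest, and in both the groups overlapped. Without KO replicate 2 the differences were 0.10 for Igkv16-104 and 0.01 for Igkv15-103, against 0.76 and 0.64 with all arrays.

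**Figure D4:**
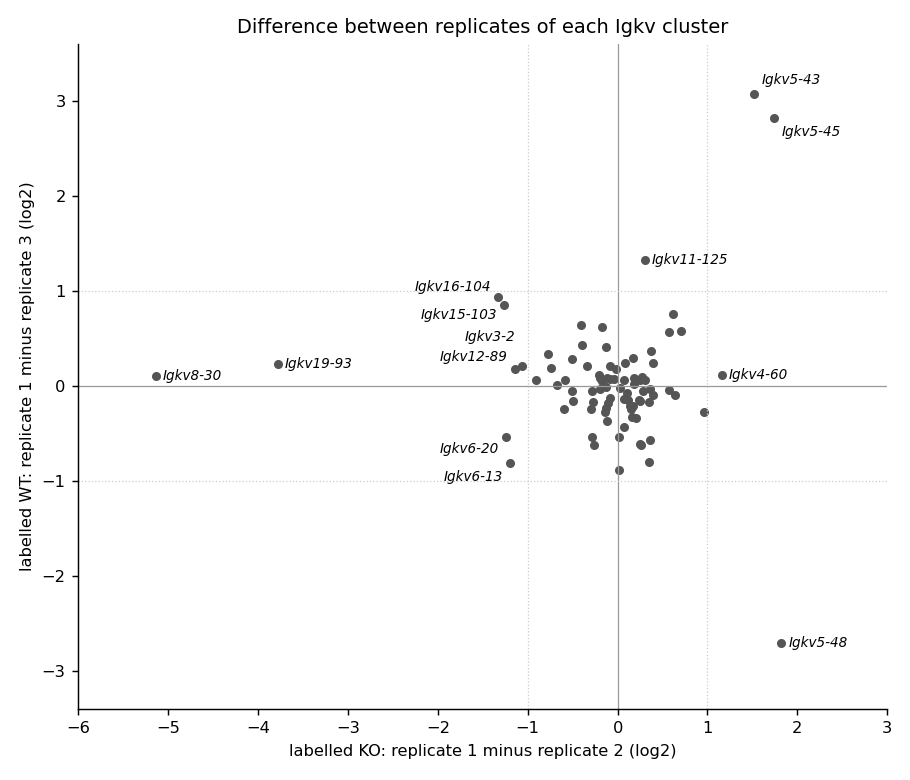
Difference between replicates of each Igkv cluster on the log2 scale, KO replicate 1 minus 2 (x axis) against WT replicate 1 minus 3 (y axis), with dotted lines at 1 log2 unit and names for clusters beyond a line. Igkv8-30 and Igkv19-93 lie far to the left at a WT difference near 0, and the 3 family 5 segments lie far from 0 on both axes.

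Other Igkv clusters with high values had overlapping groups or differences well under 1. Igkv8-34 read 7.44 and 7.32 in the arrays labelled KO, against 7.25 and 7.40 in the arrays labelled WT, a difference of 0.06 (SE 0.15). Igkv6-14 read 7.11 and 7.52 in the arrays labelled KO, against 7.27 and 6.63 in the arrays labelled WT (difference 0.36, SE 0.28), and its difference was 0.57 without KO replicate 1, 0.16 without KO replicate 2, 0.68 without WT replicate 1 and 0.04 without WT replicate 3. Igkv2-109, Igkv8-21 and Igkv1-135 had differences of -0.10, 0.15 and 0.12, each smaller than its standard error of 0.21, 0.24 and 0.20, and their arrays overlapped. Igkv3-1, the last segment before the J segments, read 6.40 and 6.23 in the arrays labelled KO, against 6.21 and 5.92 in the arrays labelled WT, with a difference of 0.25 (SE 0.16) that was 0.16 without KO replicate 1, 0.39 without WT replicate 1 and 0.10 without WT replicate 3.

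The partners of the V segments in a light chain gave little to compare. Of the 6 listed kappa joining and constant genes, 5, Igkc among them, lie only on clusters with several symbols. Igkj3, which carries a defective splice signal and is not used in mouse kappa chains, read 6.24 and 6.65 in the arrays labelled KO, against 6.02 and 6.77 in the arrays labelled WT. Its groups overlapped (difference 0.05, SE 0.30). No listed lambda gene had a cluster of its own.

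Heavy chain segments had a larger median difference in the same direction. Of 112 Ighv clusters, the variable segments of the heavy chain locus, 92 read higher in the arrays labelled KO (82.1%, median 0.48) and 69 (61.6%) were apart upward, beside 46.1% of all clusters above 0 and 17.3% apart upward. Of 85 Trav clusters, the variable segments of the T cell receptor alpha chain, which T cells do join and express, 33 read higher (38.8%, median -0.04), with 24 apart upward and 27 downward, beside 17.3% and 20.5% of all clusters. Of 21 Trbv clusters, the segments of the beta chain, which T cells also join and express, 15 read higher (71.4%, median 0.08), with 6 apart upward and 3 downward. These counts were not tested against those of the kappa segments. Among the heavy chain constant genes Ighg2b read 7.51 and 7.36 in the arrays labelled KO, against 5.62 and 5.63 in the arrays labelled WT (difference 1.81, SE 0.14, limma adjusted p 0.220). Unlike Igkv19-93 and Igkv8-30, but like Igkv14-100 and Igkv9-124, Ighg2b was about even between the arrays labelled KO. Ighm, the constant gene of IgM, read 17.08 and 17.23 in the arrays labelled KO, against 17.00 and 17.05 in those labelled WT.

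No measured gene of the lists that join or regulate the kappa locus passed the test. Rag1, the other recombinase subunit, and the regulator Spi1 lie only on clusters with several symbols. Dclre1c is not named in the annotation, so these genes have no value here. Of 8 measured V(D)J recombination genes 6 read higher and 2 lower, led by the end-joining factor Nhej1 (difference 0.46, SE 0.16, limma adjusted p 0.492). Rag2, a recombinase subunit, read 4.53 and 4.46 in the arrays labelled KO, against 4.24 and 4.46 in the arrays labelled WT, below the median cluster in every array. Of 11 measured regulators of the kappa locus 6 read higher and 4 lower, with differences between -0.17 (Foxo1) and 0.26 (Irf4), and Spib at 0. All 4 surrogate light chain genes read lower (median -0.15). The lowest limma adjusted p was 0.697 among the regulators and 0.673 among the surrogate light chain genes.

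Markers of antibody-making cells were set beside the V segments. The cells were sorted as CD4+ and green, and how many B lineage cells remained was not tested. Of 12 antibody-secreting cell markers 9 read higher and 3 lower (median 0.16), with 3 apart upward (25.0%, beside 17.3% of all clusters). Jchain, which joins antibody units, read 7.66 and 7.49 in the arrays labelled KO, against 6.62 and 6.47 in the arrays labelled WT (difference 1.03, SE 0.15, limma adjusted p 0.327). Mzb1, an antibody folding factor, read 4.90 and 5.01 in the arrays labelled KO, against 4.50 and 4.62 in the arrays labelled WT (difference 0.40, SE 0.11, limma adjusted p 0.439). For both genes the replicates of a group lay close together, like those of Igkv14-100 and Igkv9-124 and unlike those of Igkv8-30.

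Sdc1, the surface marker of plasma cells, read 4.44 and 4.45 in the arrays labelled KO, against 4.43 and 4.52 in the arrays labelled WT, below the median cluster. Tnfrsf17, a plasma cell survival receptor, read 4.31 and 4.60 in the arrays labelled KO, against 4.21 and 4.36 in the arrays labelled WT. The log2 of the summed level of all 12 markers was 12.55 and 12.29 in the arrays labelled KO and 12.21 and 12.46 in those labelled WT, which overlap. That sum is led by genes that T cells also express, such as Xbp1 and Creld2.

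Of 12 measured B cell markers 3 read higher, 7 lower and 2 at 0, and their median difference was -0.02. The log2 of their summed level was 8.66 and 8.84 in the arrays labelled KO, against 8.73 and 8.97 in the arrays labelled WT. Ms4a1, which encodes CD20, read 4.09 and 4.21 in the arrays labelled KO, against 4.23 and 4.36 in the arrays labelled WT, and Pax5, the B lineage factor, lay between 3.86 and 3.91 in all 4. Only 3 of the 12, Cd79a, Cd79b and Cd22, reached the median cluster in mean level. Markers of other cells gave 1 higher and 5 lower of 6 for monocytes and macrophages, 0 higher and 5 lower of 5 for dendritic cells and 2 higher and 1 lower of 3 for natural killer cells. In the natural killer cell list, Eomes is also a factor of some T cells. It read 7.37 and 8.49 in the arrays labelled KO, against 6.80 and 6.91 in the arrays labelled WT. The others of that list were Ncr1 (difference 0.13, SE 0.10) and Klrb1c (difference -0.12, SE 0.17). Of the red cell genes only Alas2 had a cluster of its own, with a difference of -0.06. The part of antibody-making cells, or of any other cell type listed, in the Igkv values was not tested.

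**Figure D5:**
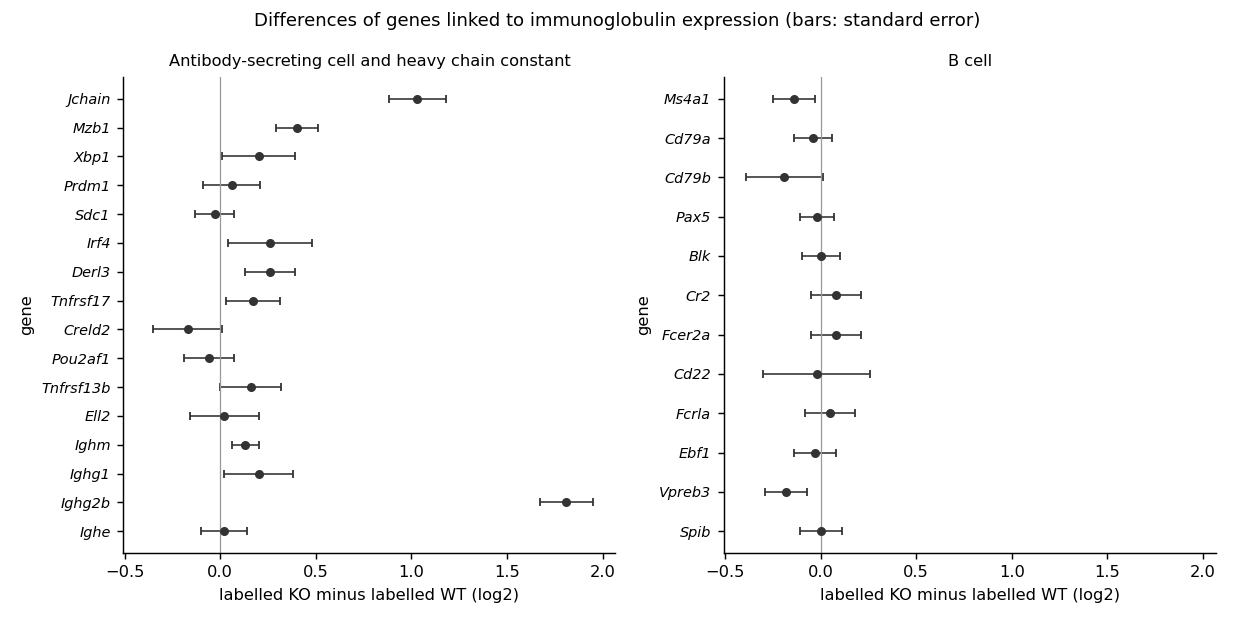
KO minus WT difference on the log2 scale (x axis) with its standard error (bars) for measured antibody-secreting cell markers and heavy chain constant genes (left) and B cell markers (right). Ighg2b (1.81) and Jchain (1.03) lie far to the right, while the B cell markers lie between -0.19 and 0.08.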

How the data were processed

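The deposited table gives log2 expression values of 65528 transcript clusters in 4 arrays, from 1.82 to 19.38. The submitters' processing notes name Transcriptome Analysis Console and RMA, which corrects background, normalizes and summarises probes. The array's genome build is not given in the sources used here, so no coordinates are printed. The number of arrays limits the precision. All columns were used.

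Symbols came from the platform annotation and, outside Igkv, Ighv, Trav and Trbv, were updated through RefSeq (GRCm38.p6), which also gave segment order and types. Differences were fitted as KO minus WT over all clusters with limma 3.58.1 in R 4.3.3 (lmFit and two-sided eBayes tests with an intensity trend), and p-values were adjusted by Benjamini-Hochberg. The procedure was tested on data simulated from the spread of the fit itself, with independent errors. That test cannot show how the procedure behaves where arrays are not independent or a single array stands apart. With 2 arrays per group, the smallest p of an exact permutation test is 0.333.

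The members, gene lists and tests were chosen with earlier results of these data known. Named Igkv clusters are the 10 of highest mean, the 10 largest and 5 lowest differences, the 5 with the widest gap between replicates and the brightest of each family of 3 or more. Igkv4-60 was named after its values were seen. Genes with several clusters are given by the brightest. The alternatives were other normalizations, a filter on dim clusters, 1 cluster per gene, other eBayes settings, a looser threshold and leaving out each array. Adding clusters with several symbols was chosen after seeing the data.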

Additional observations from a re-analysis of the deposited data

How the results depend on the processing

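No Igkv cluster passed a limma adjusted p under 0.05 under any of the alternatives run, nor under 0.10. For the 28 named clusters the lowest adjusted p under any alternative was 0.112. No paired analysis was possible because the groups share 1 replicate number only. Leaving out an array leaves 1 array in a group, which is then assumed to vary like the other group.

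Among clusters at or above the median cluster only, 49 Igkv clusters were tested, and their median difference was 0.30. An unadjusted limma p under 0.05 was reached there by 14 that read higher and 1 that read lower, beside 6.29% and 6.63% of clusters tested. Of the 49, 21 were apart upward, but the share among all clusters of that filter was not computed. Over all clusters 4 passed; 2 did with 1 cluster per gene, 2 without an intensity trend and 0 without any 1 array. Without 1 array, 13 to 21 Igkv clusters that read higher and 1 to 3 that read lower had an unadjusted limma p under 0.05, 48 to 51 were apart upward and 12 to 17 downward, and the median difference was 0.16 to 0.25. Fewer arrays overlap less often by construction. Without KO replicate 1, 48 Igkv clusters were apart upward and 14 downward, beside 33.2% and 33.5% of all clusters. Without KO replicate 2 these were 50 and 14, beside 28.8% and 37.3%. The shares of all clusters without an array labelled WT were not computed, so those counts cannot be compared. The p-value counts without 1 array rest on 1 array in a group, and no conclusion is drawn from them. Median-centring moved the median of all clusters to 0.01 and that of Igkv to 0.18. With the shared clusters, 26 that read higher had an unadjusted limma p under 0.05, beside 4.26% of all clusters, and the median was 0.19.

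Of 275 values of the named clusters under alternatives, 259 kept their direction and 16 turned, all without 1 array, in 10 clusters. Differences over the 4 omissions ran from -0.14 to 0.37 for Igkv1-135, -0.30 to 0.46 for Igkv17-127, -0.38 to 0.16 for Igkv2-109, -0.83 to 0.06 for Igkv4-68 and -0.16 to 0.23 for Igkv4-56. They ran from -1.71 to 1.00 for Igkv5-48, -1.58 to 1.24 for Igkv5-45, -2.16 to 0.91 for Igkv5-43, -0.02 to 0.13 for Igkv8-34 and -0.15 to 0.45 for Igkv8-21. The cause was not tested. With no background measure, signal over background is unknown, which limits what the 37 clusters below the median cluster can show.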
